A study of Mus musculus with 19 samples.

Results

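The genes described here are those that the deposited annotation assigns to the pathway Spliceosome. The 4 deposited tables hold 4213 genes, and 56 of them carry that entry. They were measured in P19CL6 cells, a mouse embryonal carcinoma line (also spelled PC19CL6 in the labels) used as a model of heart muscle formation. The assay was tag profiling of mRNA, which reads 1 short tag from a transcript and counts the tags of each gene. The groups are cultures of this line at day 1 (3 libraries here, of 4 replicates stated in the design text) and at days 4, 7, 10 and 14 of differentiation (4 libraries each), and no genotype or inducing agent is named in the labels. Each day held about 17400000 to 23800000 tags in all. Each later day was compared with day 1, which is itself a day of differentiation, and beating was seen at day 14 according to the design text.

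A gene is in a table only where it passed the authors' filter for that day against day 1, and every gene in the tables differed at least 2-fold. A gene therefore had to differ at some day to be found here at all, and the number of genes found supports nothing. The direction of the change was not used to choose them. "Listed as lower" and "listed as higher" refer to the authors' deposited table of that day, while a gene missing from that table lacks a value for the day and is not shown to be unchanged. A level is the authors' mean for the day in TPM, a tag count scaled to the library total and not divided by transcript length. The deposited values are day means, so how far replicate libraries lay apart is unknown, and no p-value is given. Folds are ratios of summed tags scaled to the day's total. Each is followed by its 95% Clopper-Pearson interval, which is exact and covers counting error alone. The 4 comparisons share the day 1 libraries, so a day 1 value that is off moves all of them together.

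The spliceosome is the large RNA and protein machine that cuts introns out of pre-mRNA. It is assembled on each intron from small nuclear ribonucleoproteins (snRNPs), each an RNA carrying a ring of Sm or LSm proteins and its own set of proteins. Helicases and the Prp19 complex then remodel it into its active form, while SR proteins and hnRNPs bound to the transcript help to choose the splice sites. Every cell needs this core machinery, and differentiating heart muscle relies on tissue-specific regulators to change which exons are kept.

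The pathway entry was broader than the machine. Of the 56 genes, 29 are on a list of 126 spliceosome proteins and their close partners drawn up from textbook knowledge, and the other 27 are not. The other 27 were divided by known role, after their values had been seen, into 7 genes of ribosome biogenesis, 7 other RNA-related genes and 13 genes of other functions. The 13 include 2 choline transporter-like genes, 2 autophagy genes and the mitochondrial ribosomal protein gene Mrps14, and for these the label Spliceosome does not describe the known role. Of the list of 126, 97 were in none of the 4 tables, and no other gene of it lacked the pathway entry. The list was drawn up with earlier results of these data known, so that absence supports nothing. Splicing genes in the tables without the entry, such as Zmat5 and Pcbp2, were kept on separate lists described below.

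The 29 spliceosome proteins were mostly listed as lower, and the 13 genes of other functions mostly as higher. Of the 29, 24 were listed as lower and 5 as higher at some day. All 7 genes of ribosome biogenesis were listed as lower, as were 5 of the 7 other RNA-related genes, against 3 of the 13 genes of other functions. Among all 4213 genes, 34.4% were listed as lower and 66.9% as higher at some day, a gene counting under both where its direction differed between days. The 76.9% of the 13 genes of other functions listed as higher lie near that share. Those 13 had a median of 4.65 TPM at day 1, and 6 of them were at or above 10 TPM. Of the 27 spliceosome proteins at or above 10 TPM at day 1, 23 were listed as lower and 4 as higher, against 58.2% and 43.9% of all genes at that level. None of the 56 genes was listed in both directions.

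Day 4 held the most entries for the machine itself. There, 17 of the 29 spliceosome proteins (58.6%) were listed as lower and 0 as higher. Over all 4213 genes 20.9% were listed as lower and 21.3% as higher at day 4. The genes of the machine were abundant, with a median of 66.5 TPM at day 1 against 10.0 TPM for all genes, so genes at or above 10 TPM at day 1 are the closer background. Of those 2111 genes 36.7% were listed as lower at day 4, against 59.3% (16 of 27) of the spliceosome proteins at that level. As higher, 0 of the 27 spliceosome proteins were listed, against 15.0% of those genes. All 16 spliceosome proteins at that level that were listed at day 4 were lower, against 70.9% of all genes at that level listed in either direction.

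At the later days fewer of the 29 were listed. The count was 5 lower and 1 higher at day 7, 7 lower and 1 higher at day 10, and 8 lower and 4 higher at day 14. Among spliceosome proteins at or above 10 TPM at day 1, 18.5%, 25.9% and 29.6% were listed as lower at days 7, 10 and 14, against 24.7%, 23.6% and 30.4% of all genes at that level. These shares lie near the background. The shares listed as higher, 3.70%, 3.70% and 11.1%, lie under the 16.0%, 25.6% and 28.4% of all genes at that level. Among genes at that level listed on a day, 5 of 6 spliceosome proteins were lower at day 7, 7 of 8 at day 10 and 8 of 11 at day 14, against 60.8%, 48.0% and 51.7% of all such genes.

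For all 56 genes together, the counts were 26 lower and 3 higher at day 4, 12 and 4 at day 7, 12 and 7 at day 10, and 17 and 11 at day 14. Of all 4213 genes 14.9% were listed as lower and 25.9% as higher at day 7, 14.2% and 40.2% at day 10, and 17.2% and 49.8% at day 14. The median log2 ratio of the genes listed at each day in the authors' deposited table was -1.21, -1.10, -1.03 and -1.06 at days 4, 7, 10 and 14, against 1.02, 1.26, 1.49 and 1.59 for all genes of the same tables. Since no value under 2-fold is in the tables, these medians mainly say on which side more genes fell.

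**Figure D1:**
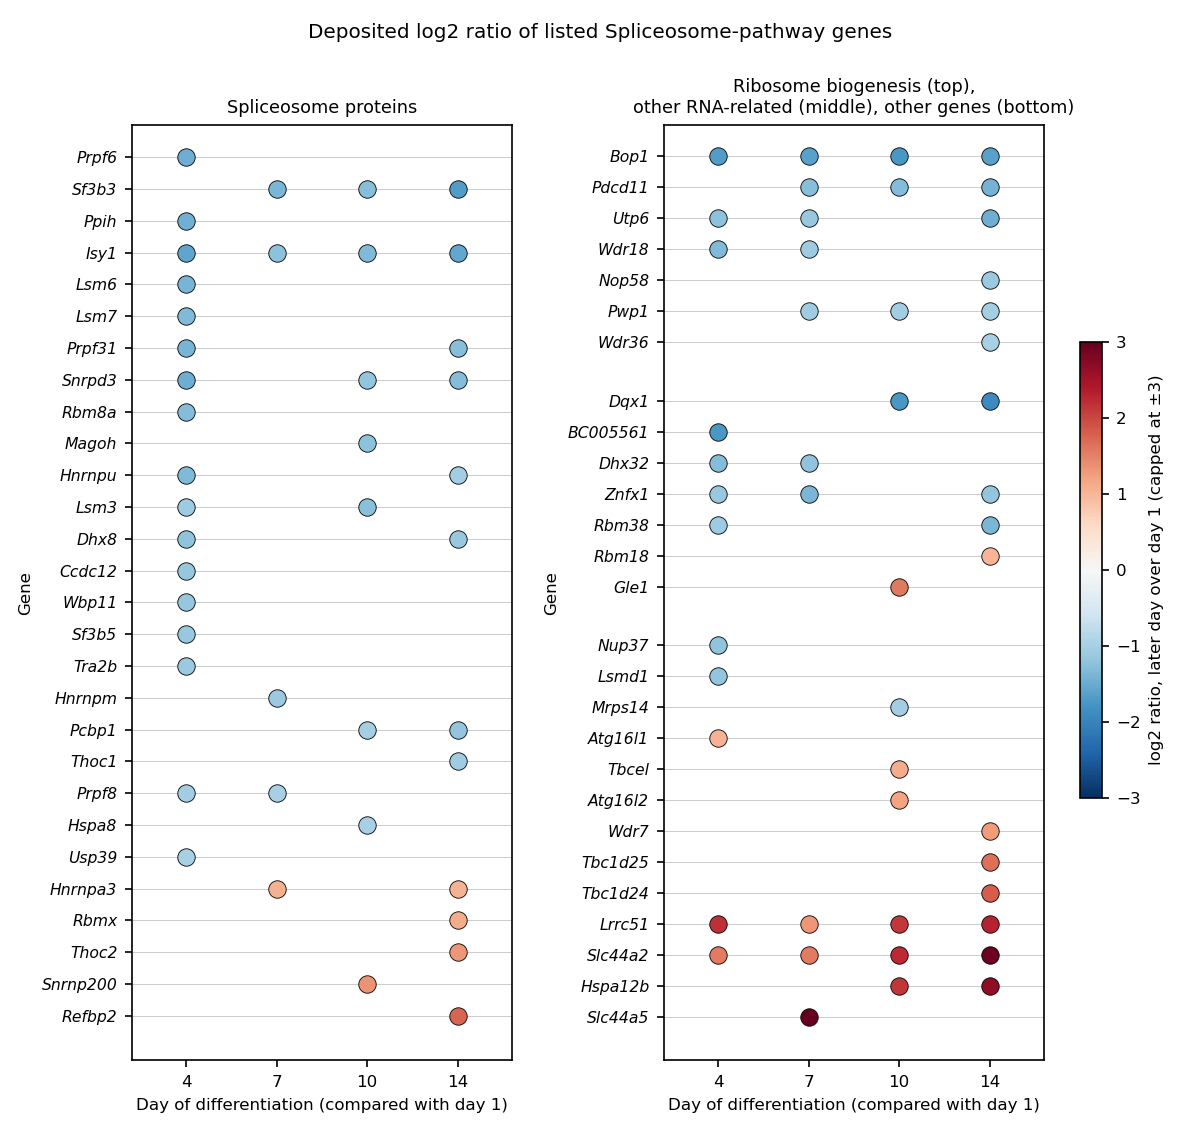
The 4 later days are on the horizontal axis, genes are on the vertical axis, and each dot is the log2 ratio in the authors' deposited table (blue lower, red higher than day 1, capped at 3). An empty place means that the gene is not listed at that day, and 1 spliceosome protein is not drawn. Most dots of the left panel are blue, with 17 of 29 spliceosome proteins listed as lower at day 4 and many places empty at the later days, and red gathers among the genes of other functions at the bottom of the right panel.

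**Figure D2:**
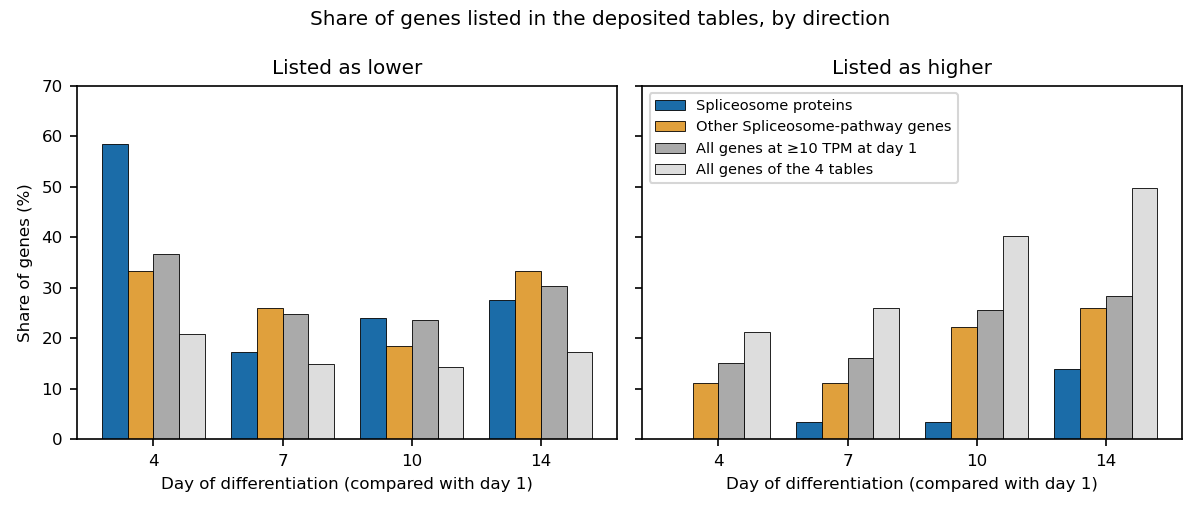
Bars give the percentage of genes listed as lower (left) or higher (right) at each later day, for the 29 spliceosome proteins, the other 27 pathway genes, all genes at or above 10 TPM at day 1, and all 4213 genes. The share of spliceosome proteins listed as lower was 58.6% at day 4, against 36.7% of genes at or above 10 TPM, and the bars for lower lie closer together at the later days. In the right panel the spliceosome proteins lie below both backgrounds at every day.

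The differences were shallow, though at day 4 the typical fold was near that of all genes listed as lower. The 37 entries in which a spliceosome protein was lower had folds of 2.00 to 3.20, with a median of 2.34, and 1 of them exceeded 3-fold. Their median folds were 2.46, 2.17, 2.35 and 2.33 at days 4, 7, 10 and 14. All genes listed as lower had median folds of 2.51, 2.65, 2.83 and 2.64 at those days. For 12 of the 37 the counting interval reached below 2-fold, so they lie at the limit of the tables, and a gene listed at one day and missing at the next need not have changed between them. Over the whole set, 4 of 29, 5 of 16, 4 of 19 and 6 of 28 entries at days 4, 7, 10 and 14 lay within 0.1 of the limit of 1 on the log2 scale. None of the 56 genes was lower by 4-fold or more at any day. Of all genes listed as lower, 16.1%, 24.9%, 29.6% and 22.0% were lower by that much at days 4, 7, 10 and 14.

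Among the ring proteins, Snrpd3 (Entrez Gene 67332), one of the Sm proteins shared by the major snRNPs, was the only 1 of 8 Sm genes in the tables. Its level was 228.6 TPM at day 1, with 82.4, 100.2 and 92.8 TPM at days 4, 10 and 14, and it was not listed at day 7. It was 2.78-fold lower at day 4 than at day 1 (2.63 to 2.93), 2.28-fold lower at day 10 (2.17 to 2.40) and 2.46-fold lower at day 14 (2.34 to 2.60). All the later levels lie below day 1, and the day 10 level was 1.22-fold the day 4 level (1.15 to 1.29), beyond counting error.

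The LSm ring binds the end of U6, the snRNA at the catalytic centre, and 3 of its 7 genes were listed as lower at day 4. Lsm7 stood at 16.1 TPM at day 4 against 40.6 at day 1, 2.52-fold lower (2.22 to 2.87). Lsm6 stood at 12.9 TPM at day 4 against 33.9 at day 1, 2.63-fold lower (2.29 to 3.04). Lsm3 was lower at day 4 (13.2 TPM) and at day 10 (11.8 TPM) than at day 1 (28.4 TPM), by 2.14-fold (1.86 to 2.48) and 2.40-fold (2.06 to 2.79). A further LSm-domain gene with the pathway entry, Lsmd1, is not part of that ring, and it stood at 46.8 TPM at day 4 against 107 at day 1.

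The U4/U6 and U5 snRNPs join the spliceosome together as the tri-snRNP, and their genes were listed mainly at day 4. Prpf31, a protein that holds U4/U6 to U5 and is mutated in a form of human retinitis pigmentosa, stood at 37.8 TPM at day 4 and 41.1 TPM at day 14, against 98.8 TPM at day 1. It was 2.61-fold lower at day 4 (2.41 to 2.84) and 2.41-fold lower at day 14 (2.22 to 2.60). Prpf6, which bridges the same particles, was 2.74-fold lower at day 4 (2.49 to 3.02), with 26.9 TPM against 73.7 at day 1.

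Prpf8, the large U5 protein around the catalytic centre, was closer to its day 1 level. It stood at 63.8 TPM at day 4 and 65.0 TPM at day 7 against 131 TPM at day 1, and both intervals (1.92 to 2.19 and 1.88 to 2.15) reach below 2-fold. The cyclophilin gene Ppih, a U4/U6 partner, was 2.71-fold lower at day 4 (2.07 to 3.57) at a low level, 3.54 TPM against 9.59 at day 1. Usp39, needed for tri-snRNP recruitment, had 9.55 TPM at day 4 against 19.1 at day 1, a fold of 2.00 (1.68 to 2.38).

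Snrnp200, the U5 helicase that unwinds U4 from U6, was listed in the other direction. Its level was 168 TPM at day 10 against 66.5 TPM at day 1, 2.53-fold higher (2.37 to 2.70), and it was not listed at days 4, 7 and 14. Its partner Prpf8 was not listed at day 10. Of the U4/U6, LSm and U5 lists, 8 genes were listed as lower at some day and 1 as higher. In no table were 9 of the 14 genes of the U4/U6 and LSm list and 7 of the 11 of the U5 list. Among all genes in the tables at or above 10 TPM at day 1, 58.2% were listed as lower and 43.9% as higher at some day.

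The U2 snRNP recognises the branch point of the intron, and Sf3b3 (101943), a large subunit of its SF3b complex, gave the largest fold below day 1 among the spliceosome proteins. Its level was 77.4 TPM at day 1, with 30.0, 31.8 and 24.2 TPM at days 7, 10 and 14. It was 2.58-fold lower than day 1 at day 7 (2.35 to 2.83), 2.43-fold lower at day 10 (2.22 to 2.67) and 3.20-fold lower at day 14 (2.90 to 3.54). The day 14 level was below the day 10 level by more than counting error, at 0.760 of it (0.680 to 0.849). The small SF3b subunit gene Sf3b5 was listed at day 4, with 15.6 TPM against 34.3 at day 1, and 21 of the 23 U2 genes on the list were in no table.

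Isy1 (57905), a protein of the Prp19-related complex of the active spliceosome, was the 1 spliceosome protein listed at all 4 later days. Its level was 78.6 TPM at day 1, with 26.4, 33.6, 31.3 and 26.6 TPM at days 4, 7, 10 and 14. The folds below day 1 were 2.98 (2.71 to 3.28), 2.34 (2.14 to 2.56), 2.51 (2.29 to 2.75) and 2.96 (2.69 to 3.26) at days 4, 7, 10 and 14. All 4 later levels lay at well under the day 1 level, and they differed among themselves by much less. The day 7 level was 1.28-fold the day 4 level (1.15 to 1.42).

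Other factors of activation and catalysis were listed at day 4. Ccdc12 had 16.7 TPM at day 4 against 37.4 at day 1, and Wbp11, a WW-domain binding protein of the spliceosome, had 136 TPM against 303 at day 1. Dhx8, the helicase that releases the spliced mRNA, stood at 18.3 TPM at day 4 and 19.2 TPM at day 14 against 42.0 TPM at day 1. The folds below day 1 were 2.23-fold (1.97 to 2.54) for Ccdc12, 2.23-fold (2.13 to 2.33) for Wbp11 and 2.29-fold (2.03 to 2.59) for Dhx8 at day 4. Hspa8, an abundant chaperone that the pathway also holds, was listed at day 10 with 10.1 TPM against 20.2 at day 1. It has near-identical gene copies, and how shared tags were counted is not given in the sources used here, so its values are uncertain.

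Promoters of the spliceosome proteins listed as lower at 3 or 4 days, and of the one listed as higher at 2 days, are shown so that genes that moved together can be set against one that did not. Each is 300 bases, 250 before and 50 after the annotated start, 5′ to 3′, from RefSeq on build GRCm38.p6. Capitals mark matches to 5 motifs searched on both strands, none of which holds another within it: CCGGAAG (an ETS-type motif), CACGTG (an E-box), CCAAT (bound by NF-Y), TATAAA (the TATA box) and the palindromic NRF1-type motif. A match on the other strand reads as CTTCCGG or ATTGG.
Isy1, chr6:87838710-87839009, minus strand: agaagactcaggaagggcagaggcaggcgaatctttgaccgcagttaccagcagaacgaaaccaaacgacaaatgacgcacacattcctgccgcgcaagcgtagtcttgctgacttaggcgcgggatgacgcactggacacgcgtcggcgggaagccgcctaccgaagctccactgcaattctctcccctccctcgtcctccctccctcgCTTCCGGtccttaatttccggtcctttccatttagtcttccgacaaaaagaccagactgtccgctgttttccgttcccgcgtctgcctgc
Sf3b3, chr8:110846754-110847053, minus strand: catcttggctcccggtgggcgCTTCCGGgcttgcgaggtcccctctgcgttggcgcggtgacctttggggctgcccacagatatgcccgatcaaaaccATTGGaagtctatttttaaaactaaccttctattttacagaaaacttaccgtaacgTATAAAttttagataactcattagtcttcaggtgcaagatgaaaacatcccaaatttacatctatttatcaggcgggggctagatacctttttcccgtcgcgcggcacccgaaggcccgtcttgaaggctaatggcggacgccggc
Snrpd3, chr10:75517792-75518091, plus strand: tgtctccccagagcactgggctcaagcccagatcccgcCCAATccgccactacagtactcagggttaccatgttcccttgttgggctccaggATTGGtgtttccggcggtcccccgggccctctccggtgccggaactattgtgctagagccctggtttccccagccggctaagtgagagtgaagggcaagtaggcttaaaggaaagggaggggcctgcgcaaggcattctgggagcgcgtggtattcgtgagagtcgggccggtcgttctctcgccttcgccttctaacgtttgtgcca
Hnrnpa3, chr2:75659009-75659308, plus strand: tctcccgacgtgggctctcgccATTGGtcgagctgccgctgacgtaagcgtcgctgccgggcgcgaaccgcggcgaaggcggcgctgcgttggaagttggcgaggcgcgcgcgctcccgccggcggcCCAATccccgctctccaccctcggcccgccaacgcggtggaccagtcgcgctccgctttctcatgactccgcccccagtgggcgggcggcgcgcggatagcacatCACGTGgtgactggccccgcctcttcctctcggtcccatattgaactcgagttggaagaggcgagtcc
Isy1 and Sf3b3 hold the ETS-type motif and Hnrnpa3 holds the E-box, while Sf3b3, Snrpd3 and Hnrnpa3 hold CCAAT and Sf3b3 alone of these holds TATAAA. In Isy1 the ETS-type motif starts 40 bases before the annotated start, and in Sf3b3 it starts 229 bases before it. Promoters were on file for 23 of the 29 spliceosome proteins, 24 sequences in all, and 37.5% of them held CCGGAAG, against 8.86% of all 32851 promoters of the same length in the table. The shares were 12.5% and 7.15% for CACGTG, 41.7% and 37.4% for CCAAT, 12.5% and 13.6% for TATAAA, and 16.7% and 4.60% for the NRF1-type motif. Over the 51 promoters of 42 of the 56 genes, 31.4% held CCGGAAG, 9.8% CACGTG, 31.4% CCAAT, 9.8% TATAAA and 15.7% the NRF1-type motif, so CCAAT and TATAAA were less frequent than among all promoters. The background of all promoters was not limited by level or to genes of the tables, and genes listed as lower and as higher are pooled. A match is a run of letters and not a site, and these shares were not tested.

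**Figure D3:**
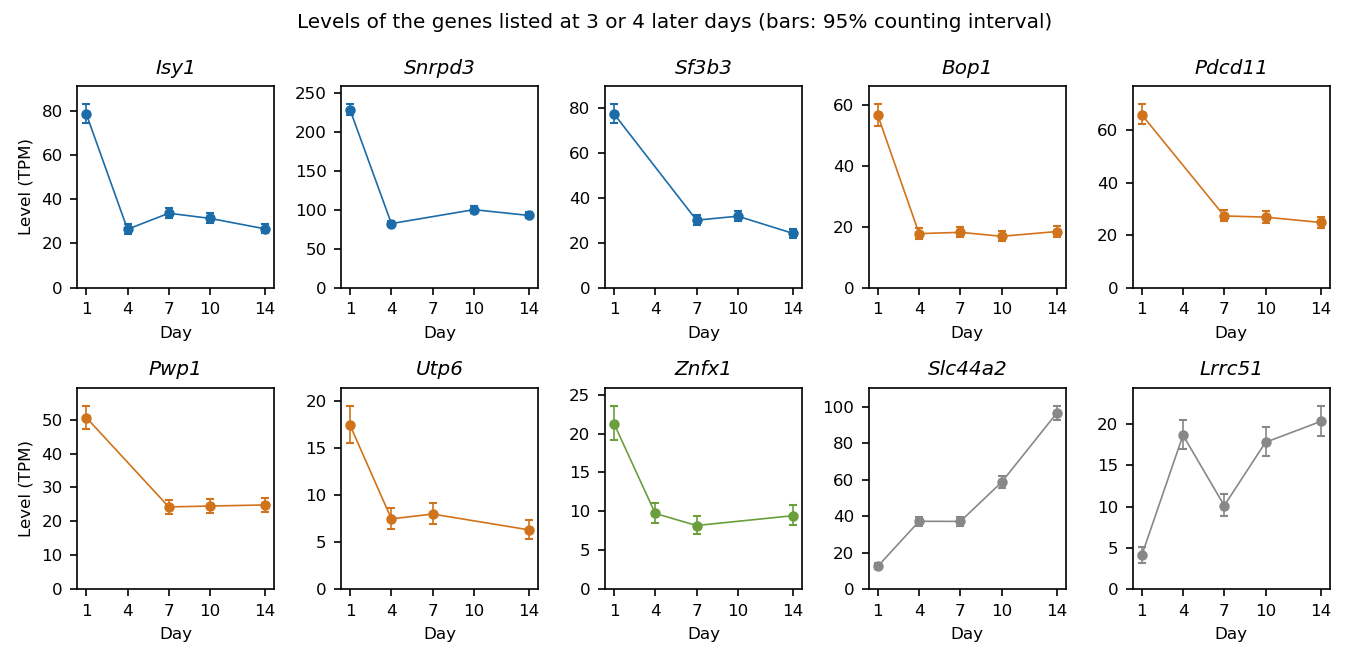
Each panel is a gene listed at 3 or 4 later days, with the day on the horizontal axis and the authors' mean level in TPM on the vertical axis. Bars are exact 95% Poisson intervals (counting error only), and days without a listing have no point. The 8 genes listed as lower lie below their day 1 level at every day shown, whereas Slc44a2 lies above it throughout, with 96.4 TPM at day 14.

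The exon junction complex is left on mRNA at the joined exons, and its core pair Magoh and Rbm8a were each listed as lower once. Rbm8a stood at 23.0 TPM at day 4 against 56.6 at day 1, 2.46-fold lower (2.21 to 2.73). Magoh stood at 55.4 TPM at day 10 against 130.1 at day 1, 2.35-fold lower (2.19 to 2.52). They bind each other as proteins. Rbm8a has no value at day 10 and Magoh has none at day 4, so whether both were lower at the same day is unknown.

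The TREX complex, which couples splicing to mRNA export, had genes on both sides at day 14. Thoc1 stood at 44.3 TPM against 93.1 at day 1, 2.10-fold lower (1.94 to 2.27). Thoc2, its largest subunit, stood at 71.1 TPM against 28.6 at day 1, 2.49-fold higher (2.25 to 2.75), and the export adaptor gene Refbp2 (Alyref2 in RefSeq) stood at 5.96 TPM against 1.78, 3.35-fold higher (2.26 to 5.11). BC005561, named Thoc2l in RefSeq, had 3.58 TPM at day 4 against 11.9 at day 1, 3.33-fold lower (2.57 to 4.35). Tags shared by Thoc2 and BC005561 cannot be told apart here, so both values are uncertain.

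Of the proteins that mark exons and splice sites, Tra2b was the 1 of 11 SR-type genes in the tables. This splicing activator stood at 132 TPM at day 4 against 286 at day 1, 2.17-fold lower (2.08 to 2.27). Hnrnpu (51810), a nuclear scaffold and RNA-binding protein, was the most abundant gene of the pathway set, with 251 TPM at day 4 and 306 TPM at day 14 against 630.0 TPM at day 1. It was 2.51-fold lower at day 4 (2.43 to 2.59) and 2.06-fold lower at day 14 (2.00 to 2.12), and its day 14 level exceeded its day 4 level 1.22-fold (1.18 to 1.27).

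Further hnRNP genes were split. Hnrnpm stood at 86.0 TPM at day 7 against 187 at day 1, 2.17-fold lower (2.05 to 2.30). The poly(C)-binding protein gene Pcbp1 stood at 171 TPM at day 10 and 155 TPM at day 14 against 349 TPM at day 1. Hnrnpa3 was higher, with 145 TPM at day 7 and 143 TPM at day 14 against 69.7 TPM at day 1, folds of 2.08 (1.95 to 2.22) and 2.05 (1.92 to 2.19). The X-linked gene Rbmx was 2.15-fold higher at day 14 (1.97 to 2.34), with 87.1 TPM against 40.5. Both Hnrnpa3 and Rbmx have related copies in the genome, so their values are uncertain in the same way as that of Hspa8, and Rbmx is listed under a non-coding transcript variant.

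The 7 genes of ribosome biogenesis, which process ribosomal RNA in the nucleolus and share WD repeats or other domains with splicing factors, were listed as lower at every day they appeared. Bop1 (12181), needed for the large subunit, was listed at all 4 later days, with 56.6 TPM at day 1 and 17.7, 18.2, 16.9 and 18.4 TPM at days 4, 7, 10 and 14. It was 3.19-fold lower than day 1 at day 4 (2.84 to 3.59), 3.12-fold lower at day 7 (2.78 to 3.50), 3.36-fold lower at day 10 (2.98 to 3.79) and 3.07-fold lower at day 14 (2.74 to 3.45). Neighbouring later days did not differ beyond counting error for Bop1.

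Pdcd11, a pre-rRNA processing factor, stood at 27.3, 26.9 and 24.8 TPM at days 7, 10 and 14, against 66.0 TPM at day 1. Its folds below day 1 were 2.41 (2.19 to 2.66), 2.45 (2.22 to 2.71) and 2.66 (2.40 to 2.94). Pwp1 stood at 24.2, 24.5 and 24.8 TPM at days 7, 10 and 14 against 50.6 TPM at day 1, and its largest fold was 2.09 (1.88 to 2.33). Neighbouring days from day 7 on did not differ beyond counting error for either gene. Utp6, of the small subunit processome, stood at 7.46, 7.97 and 6.29 TPM at days 4, 7 and 14 against 17.4 TPM at day 1, and was 2.76-fold lower at day 14 (2.27 to 3.38). Wdr18 stood at 52.5 TPM at day 4 and 62.5 TPM at day 7 against 132 TPM at day 1. Nop58, a core protein of box C/D small nucleolar RNPs, had 114 TPM at day 14 against 248 at day 1, and Wdr36 had 36.0 TPM at day 14 against 72.2 at day 1. The folds of the 7 genes ran from 2.00 to 3.36.

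The other RNA-related genes included relatives of the spliceosomal helicases. Dqx1, a DEAQ-box relative, gave the largest fold below day 1 of the whole set. It stood at 9.79 TPM at day 10 and 8.77 TPM at day 14 against 32.7 TPM at day 1, 3.34-fold (2.86 to 3.92) and 3.73-fold (3.18 to 4.39) lower. Dhx32 stood at 15.9 TPM at day 4 and 16.8 TPM at day 7 against 39.0 TPM at day 1. Znfx1, a helicase with zinc fingers, stood at 9.73, 8.18 and 9.44 TPM at days 4, 7 and 14 against 21.3 TPM at day 1, with its largest fold of 2.60 at day 7 (2.18 to 3.12). Neighbouring later levels did not differ beyond counting error. Rbm38, an RNA-binding protein and splicing regulator, stood at 26.4 TPM at day 4 and 22.0 TPM at day 14 against 56.5 TPM at day 1.

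Gle1 and Rbm18 were the 2 RNA-related genes listed as higher. Gle1, which drives the release of mRNA at the nuclear pore, stood at 18.5 TPM at day 10 against 6.14 at day 1, 3.01-fold higher (2.43 to 3.76). Rbm18 stood at 27.8 TPM at day 14 against 13.8 at day 1, at the 2-fold limit (2.02, 1.74 to 2.35). Nup37, a scaffold protein of the nuclear pore counted here among the genes of other functions, was lower at day 4, with 26.4 TPM against 61.0 at day 1.

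Genes of other functions gave the largest folds above day 1, and they make up 10 of the 17 pathway genes listed as higher. Slc44a2, a choline transporter-like membrane protein, had 12.5 TPM at day 1 and 37.2, 37.1, 58.6 and 96.4 TPM at days 4, 7, 10 and 14. It was 2.97-fold higher at day 4 (2.56 to 3.46), 2.96-fold at day 7 (2.55 to 3.45), 4.69-fold at day 10 (4.06 to 5.43) and 7.70-fold higher at day 14 (6.70 to 8.89), and day 14 exceeded day 10 1.64-fold (1.54 to 1.76). Lrrc51, a leucine-rich repeat gene, had 4.07 TPM at day 1 and 18.6, 10.1, 17.8 and 20.3 TPM at days 4, 7, 10 and 14. Its day 7 level was 0.542 of its day 4 level (0.461 to 0.637), beyond counting error. It was 4.57-fold (3.55 to 5.96), 2.48-fold (1.89 to 3.28), 4.36-fold (3.38 to 5.70) and 4.98-fold (3.88 to 6.49) higher than day 1 at days 4, 7, 10 and 14.

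Hspa12b, a distant Hsp70 relative known from endothelial cells, stood at 5.55 TPM at day 10 and 8.01 TPM at day 14 against 1.26 TPM at day 1, 4.39-fold (2.78 to 7.26) and 6.35-fold (4.07 to 10.4) higher. Slc44a5, of the same family as Slc44a2, had 2.87 TPM at day 7 and 0 tags at day 1. A floor of 3 tags over the 3 day 1 libraries gives a ratio of 16.7. The exact interval for 67 tags at day 7 against 0 at day 1 starts at 13.2-fold and has no upper end. The TBC-domain genes Tbc1d24 and Tbc1d25 were higher at day 14, with 8.05 against 2.30 TPM and 9.48 against 3.04 TPM at day 1, folds of 3.51 (2.48 to 5.06) and 3.12 (2.30 to 4.29). The remaining genes listed as higher were the autophagy genes Atg16l1 (34.0 TPM at day 4 against 16.6 at day 1, 2.05-fold, 1.79 to 2.36) and Atg16l2, the tubulin cofactor-like gene Tbcel and the WD-repeat gene Wdr7, with folds of 2.05 to 2.44. Mrps14 was lower at day 10, with 8.78 TPM against 17.97 at day 1. Of 10 endothelial and blood markers, 1 was in no table. The number listed as higher was 1, 4, 9 and 7 at days 4, 7, 10 and 14. Of all 4213 genes 21.3%, 25.9%, 40.2% and 49.8% were listed as higher at those days. Every marker listed at both days 10 and 14 had a lower level at day 14, such as Cdh5 with 24.0 and 8.98 TPM. Hspa12b was 1.44-fold higher at day 14 than at day 10 (1.15 to 1.82). The part of such cells in the values of Hspa12b was not tested.

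**Figure D4:**
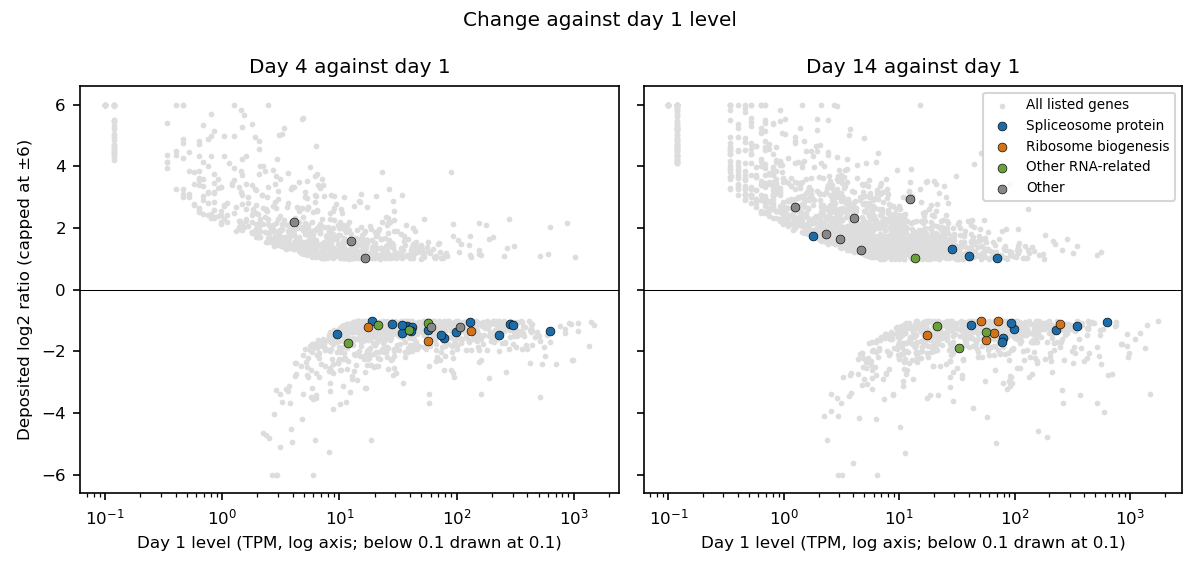
Day 1 level (TPM, log axis) is set against the log2 ratio in the authors' deposited tables for day 4 (left) and day 14 (right), with all listed genes in pale grey and pathway genes coloured by role. Pathway genes that were lower lie at 9.59 to 630.0 TPM at day 1, close under the 2-fold limit, and those that were higher lie further left, at 1.26 to 69.7 TPM.

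The level at day 1 differed between the groups, but it is also the base of each ratio, so this difference is partly built in. The 39 genes listed as lower had a median of 56.6 TPM at day 1, with 9.59 as the lowest, and the 17 listed as higher had a median of 6.14 TPM, with 69.7 as the highest. All 4213 genes had a median of 10.0 TPM, and they were split in the same way. Of the 1448 listed as lower at some day, 1228 were at or above 10 TPM at day 1. Of the 2820 listed as higher at some day, 926 were. Among the spliceosome proteins alone, the 24 listed as lower had a median of 75.5 TPM and the 5 listed as higher had a median of 40.5 TPM.

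Splicing genes that lack the pathway entry were followed by lists. Of 13 snRNP assembly genes, whose products load Sm rings onto the snRNAs, 3 were in the tables and all 3 were listed as lower, while 58.2% of all genes in the tables at or above 10 TPM at day 1 were listed as lower at some day. Smn1, the gene of the survival of motor neuron complex, stood at 74.3 TPM at day 4 and 78.4 TPM at day 14 against 167 TPM at day 1, 2.25-fold (2.12 to 2.39) and 2.13-fold (2.01 to 2.26) lower. Its partner Gemin5 stood at 30.8 TPM at day 7 and 34.5 TPM at day 14 against 69.4 TPM at day 1. Prmt5, which methylates Sm proteins, stood at 52.0 TPM at day 10 and 46.8 TPM at day 14 against 109 TPM at day 1. Of 9 genes of the minor spliceosome, Zmat5 was the 1 in the tables, lower at day 4 (13.0 TPM against 32.0 at day 1) and day 7 (15.9 TPM). Of 22 further hnRNP and RNA-binding genes 3 were in the tables, all lower, among them Pcbp2 with 480.0 TPM at day 10 against 1778 at day 1, 3.70-fold lower (3.62 to 3.79).

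Markers of other states moved in the same comparisons. Of 10 pluripotency genes 5 were listed as lower at day 4 and 6 at each of days 7, 10 and 14, and of 10 genes of dividing cells 5, 4, 2 and 4 were listed as lower at days 4, 7, 10 and 14, with 0 higher in either list. Plk1, a mitotic kinase gene, stood at 56.3 TPM at day 4 and 48.4 TPM at day 14 against 157 TPM at day 1. Heart muscle genes were listed as higher, 0, 2, 6 and 8 of 10 at days 4, 7, 10 and 14, and of 10 neuronal genes 4, 5, 5 and 3 were listed as lower and 0, 0, 1 and 2 as higher. Of all 4213 genes 20.9%, 14.9%, 14.2% and 17.2% were listed as lower at those days, and 21.3%, 25.9%, 40.2% and 49.8% as higher. Among genes at or above 10 TPM at day 1, 36.7%, 24.7%, 23.6% and 30.4% were listed as lower. The lists of 10 also count genes in no table, while these shares cover genes in the tables alone. The part of the marker changes in the values of the splicing genes was not tested. In whole cultures fewer cells of a type and less RNA per cell cannot be told apart.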

How the data were processed

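Libraries came from the Illumina DGE Tag Profiling Kit, per the labels' protocols, and tags refer to mm9 per the submitters' processing notes. Not given in the sources used here were the aligner, the treatment of shared tags and the authors' test. The deposited tables hold mean raw tag counts and TPM per day and a log2 ratio of these TPM values, per the file headers, and 0.01 TPM where no tag was counted, read here as 0. The deposited p-value and FDR columns were not used, since 12.0% to 14.2% of the p-values and 55.9% to 60.2% of the FDR values exceed 1. Mean counts times the number of libraries were whole within 0.05 for 100% of genes, which gave tag sums, and the totals implied by counts and TPM were about 17400000, 23400000, 23400000, 22900000 and 23800000 tags at days 1, 4, 7, 10 and 14.

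Genes were taken by the word Spliceosome in the pathway column, 1 row per gene, and 2 with a blank symbol were named from their description. All 56 matched RefSeq genes, and the values of 1 gene, which stays in the counts, are not reported here. Genes, lists and roles were chosen with earlier results of these data known. Named in full are genes listed at 3 or 4 days and, per day, the 5 largest changes in each direction. Of the other lists, up to 4 genes a day are named. The alternatives were abundance limits, a 4-fold limit, exact pathway entries, the list of spliceosome proteins, tag sums and log2(TPM + 1). Tables were read with pandas 2.3.3 in Python 3.11.15, intervals came from scipy 1.17.1 with numpy 2.4.6, and plots from matplotlib 3.10.9. The interval step was tested on simulated data that held counting error alone, so that test cannot speak to the spread between replicate libraries. Promoter sequences are from RefSeq, build GRCm38.p6, while the tag data refer to mm9.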

Additional observations from a re-analysis of the deposited data

How the results depend on the processing

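Counts of genes listed depended on which genes were counted. With an absolute log2 ratio of at least 2, 0 of the 56 genes were lower at any day, and 1, 1, 3 and 3 were higher at days 4, 7, 10 and 14. Taking the genes from the list of spliceosome proteins gave 17, 5, 7 and 8 lower and 0, 1, 1 and 4 higher at days 4, 7, 10 and 14. Keeping only genes whose abundance reached the median of their table gave 2, 3 and 5 higher at days 7, 10 and 14. Genes at or above 10 TPM at day 1, a limit chosen after seeing the data, gave 2, 3 and 5 higher at the same days. The median log2 ratio over the 4 genes listed at all 4 days was -0.0028 at day 4 and reversed to 0.044, 0.40 and 0.38 at days 7, 10 and 14. That set holds 2 genes lower and 2 higher by its construction. Recovered tag sums, log2(TPM + 1) and the abundance limits kept the medians negative. An exact match of the pathway entry changed no count. Of 92 folds, 90 stayed within their counting interval with log2(TPM + 1), the exceptions being Slc44a5 and Hspa12b. Leaving out replicates was not run, and no paired analysis was possible because the tables hold day means and no values of single libraries. A level under about 0.172 TPM at day 1 cannot be told from 0.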

Other observations

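Regulators that switch exons between tissues, rather than build the spliceosome, had entries in both directions. Of 33 tissue splicing regulators, 12 were in the tables and the other 21 were in no table. Of the 12, 2 were listed as higher and 7 as lower at day 4 in the authors' deposited table. At day 14, 6 of the 12 were listed as higher and 1 as lower. That 1 gene, Rbm38, carries the pathway entry and is also counted among the 56. Of all 4213 genes in the tables, 21.3% were listed as higher and 20.9% as lower at day 4, and 49.8% and 17.2% at day 14, so the tables as a whole also held more genes listed as higher at day 14. Mbnl1, a muscleblind protein that promotes adult exon patterns in heart and skeletal muscle, had 7.23 TPM at day 1 and 2.09, 23.2, 43.6 and 65.5 TPM at days 4, 7, 10 and 14. It was 3.46-fold lower at day 4 (2.47 to 4.92) and 9.05-fold higher at day 14 (7.55 to 10.9). Mbnl2 had 2.07 TPM at day 1 and 8.18, 9.17 and 15.4 TPM at days 7, 10 and 14, and Mbnl3 had 16.6 TPM at day 14 against 3.04 TPM at day 1. Celf2, a regulator that opposes muscleblind proteins at some exons, had 8.04 TPM at day 1 and 32.1, 17.4, 39.6 and 69.3 TPM at days 4, 7, 10 and 14, 8.62-fold higher at day 14 (7.25 to 10.3).

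Qk, the quaking gene, had 15.8 TPM at day 1 and 7.76, 38.5 and 60.0 TPM at days 4, 10 and 14, so it was listed as lower at day 4 and as higher at days 10 and 14. Rbfox2 had 114 TPM at day 10 and 139 TPM at day 14 against 55.3 TPM at day 1. The Elavl genes were listed as lower. Elavl1 had 163 TPM at day 4 and 194 TPM at day 7 against 427 TPM at day 1, and the neuronal Elavl3 had 4.28 TPM at day 10 against 20.7 TPM at day 1. Of 7 kinases that phosphorylate SR proteins, 3 were listed as higher at some day and 4 were in no table, while 66.9% of all genes in the tables were listed as higher at some day. The kinase gene Srpk2 had the largest of these folds, with 46.9 TPM at day 14 against 11.1 TPM at day 1, 4.21-fold higher (3.61 to 4.93). These intervals cover counting error only, and no test between replicates was possible.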
